A study of Homo sapiens with 4 samples.

Results

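The genes described here encode the translation initiation factors eIF1 to eIF6, the elongation factors eEF1 and eEF2, and proteins named after them, such as eIF4E-binding proteins and the enzymes that modify elongation factors. They were chosen by name, as protein-coding genes whose symbol starts with EIF1 to EIF6, EEF1 or EEF2, without the eIF2 kinases and without genes on chromosome Y. This gave 66 of the 58735 genes in the deposited table. RNA was sequenced from SUP-M2, a human line of anaplastic large cell lymphoma that carries an ALK fusion. 2 libraries came from cells with a scrambled hairpin (shscramble) and 2 from cells with a short hairpin RNA against GOLM1 (shGOLM1), which encodes a Golgi membrane protein. The genotype label calls the shGOLM1 cells a knockout, while the titles name a hairpin. The series asks what GOLM1 does for the survival of these lymphoma cells. Nothing in the labels says that the 2 libraries of a group came from separate cultures, so every p here is set against a spread that could be technical only.

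As background, translation starts when eIF2 brings the initiator tRNA to the small ribosomal subunit, and eIF1, eIF1A, eIF3 and eIF5 help that subunit find the start codon. The cap of the mRNA is bound by eIF4E, which sits on the scaffold eIF4G with the helicase eIF4A, while 4E-BP proteins block that contact until mTORC1 phosphorylates them. eIF2 is recharged with GTP by eIF2B, a step that stress kinases inhibit. Elongation then depends on eEF1A, which delivers charged tRNAs, on eEF2, which moves the ribosome along, and on eIF5A, which helps at slow peptide bonds. Several of these genes are transcribed into TOP mRNAs, which begin with a C and a run of pyrimidines and whose translation is controlled through mTORC1 and LARP1.

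Total counts, replicates 1 and 2, were 31972153 and 31608073 for shscramble and 30889185 and 27544171 for shGOLM1. GOLM1 itself stood at 212 and 213 CPM (counts scaled to a common library total, here with TMM factors) in shscramble, against 69.6 and 69.5 CPM in the shGOLM1 libraries. The shGOLM1 libraries differed from each other more than the shscramble libraries did, with correlations of log2 CPM across 14166 genes of 0.873 and 0.989. shGOLM1 replicate 2 stood apart. Mitochondrially encoded genes took 0.455% of its counts against 1.95% to 2.38% in the other 3 libraries, and ribosomal protein genes took 16.3% against 7.55% to 9.91%. Both shares move with the translation factor values of that library given below, and their part in those values was not tested. The 7 lymphoma markers examined, among them TNFRSF8 (CD30) and ALK, were present in every library, with a summed level of 1853 to 4328 CPM. They did not move as one: TNFRSF8 was at 634 and 614 CPM in shscramble and 539 and 88.4 CPM in shGOLM1, and PRF1 at 2.91 and 2.71 against 621 and 145 CPM. Of the 6 T cell markers, CD3E, CD3G and CD5 were at or near 0. CD3D was at 0.548 to 6.24 CPM, CD2 at 2.18 to 5.80 CPM and CD4 at 179.9 to 380 CPM. Among myeloid markers only CSF1R exceeded 1 CPM, at 231 to 309 CPM. Markers of B cells, epithelium, fibroblasts and red cells summed to at most 3.16 CPM in any library. Every result that rests on shGOLM1 replicate 2 is therefore given per library as well.

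Across all 4 libraries, 60 of the 66 genes were abundant enough to test, and none of them passed edgeR's quasi-likelihood test at an adjusted p of 0.05. The same was true of every other gene tested (background 0% of 14166), with 0.42 as the lowest adjusted p. Before adjustment, 3 translation factors were higher in shGOLM1 and 5 lower at p under 0.05, where 8.2% and 3.58% of all genes tested were. DESeq2 on the same genes called 2 of the 60, EIF5A2 and EIF4E3, both higher (background 3.76%, of which 3.42% higher and 0.339% lower). EIF5A2 had 0 counts in shscramble and was among the 60 only through its shGOLM1 counts, so its call is a description and supports nothing. In the authors' deposited table, 4 members had an adjusted p under 0.05, all with a higher shGOLM1 mean: EIF5A2, EIF4E3, EIF4A1 and EEF1AKMT3. The share of all genes under 0.05 in that table was not taken, so this count has no background and is a description. EIF4A1 was high in shGOLM1 replicate 2 alone, at 66.3 CPM, against 4.93 CPM in replicate 1 and 4.05 and 5.68 CPM in shscramble. The median log2 fold change of the 60 was 0.06, beside 0.05 for all genes tested. In bulk RNA, fewer cells of one kind and less RNA per cell cannot be told apart.

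That near-zero median combined 2 unlike libraries. In shGOLM1 replicate 1 most translation factor genes passed as lower than in shscramble, while in replicate 2 they passed in both directions at shares near those of all genes. Each shGOLM1 library was set against both shscramble libraries in its own edgeR fit. Such a fit compares libraries, not conditions, and takes the spread of the shscramble pair as that of the lone library. The 2 fits share their controls. In replicate 1, 6 of 60 members passed as higher and 34 as lower, which is 10% and 56.7% of them, where 20.4% and 24.1% of all genes did (44.5% in either direction). In replicate 2, 25 passed as higher and 23 as lower, or 41.7% and 38.3%, where 33.3% and 34.1% of all genes did (67.4% in either direction). The median log2 difference in CPM from the shscramble mean was -0.35 in replicate 1 and 0.18 in replicate 2, against 0.00 and -0.04 for all genes tested.

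Sorted by both libraries, 18 members were lower in each of them (30%, background 14.2%) and 5 were higher in each (8.33%, background 9.83%). Another 13 passed in opposite directions (background 11.4%), and in every one of the 13 the gene was lower in replicate 1 and higher in replicate 2 (background for that order 6.04%). Those lower in each library were EIF1AX, EIF5, EIF5B, EIF2S1, EIF2B1, EIF2B2, EIF2B3, EIF2B5, EIF3B, EIF3CL, EIF3J, EIF4G2, EIF5A, EIF5AL1, EIF6, EEF1E1, EEF1AKMT1 and EEF2KMT. EIF5AL1 is a near-identical copy of EIF5A, and EIF3CL of EIF3C, and reads could be split between copies. They are thus not independent entries. Those higher in each library were EIF4B, EIF4E3, EIF5A2, EEF2 and EEF1AKMT3. EIF5A2 passed the filter on low counts only through shGOLM1. Its place in these and the other counts of higher members is a description and supports nothing. Counting only whether the 2 groups overlapped, 7 members had both shGOLM1 libraries above both shscramble libraries (11.7%, background 25.2%). In 21 members both were below (35%, background 26.5%). The groups overlapped in 32 of the 60, and in 6847 of the 14166 genes tested. Over all genes, 51.7% were free of overlap in one direction or the other.

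**Figure D1:**
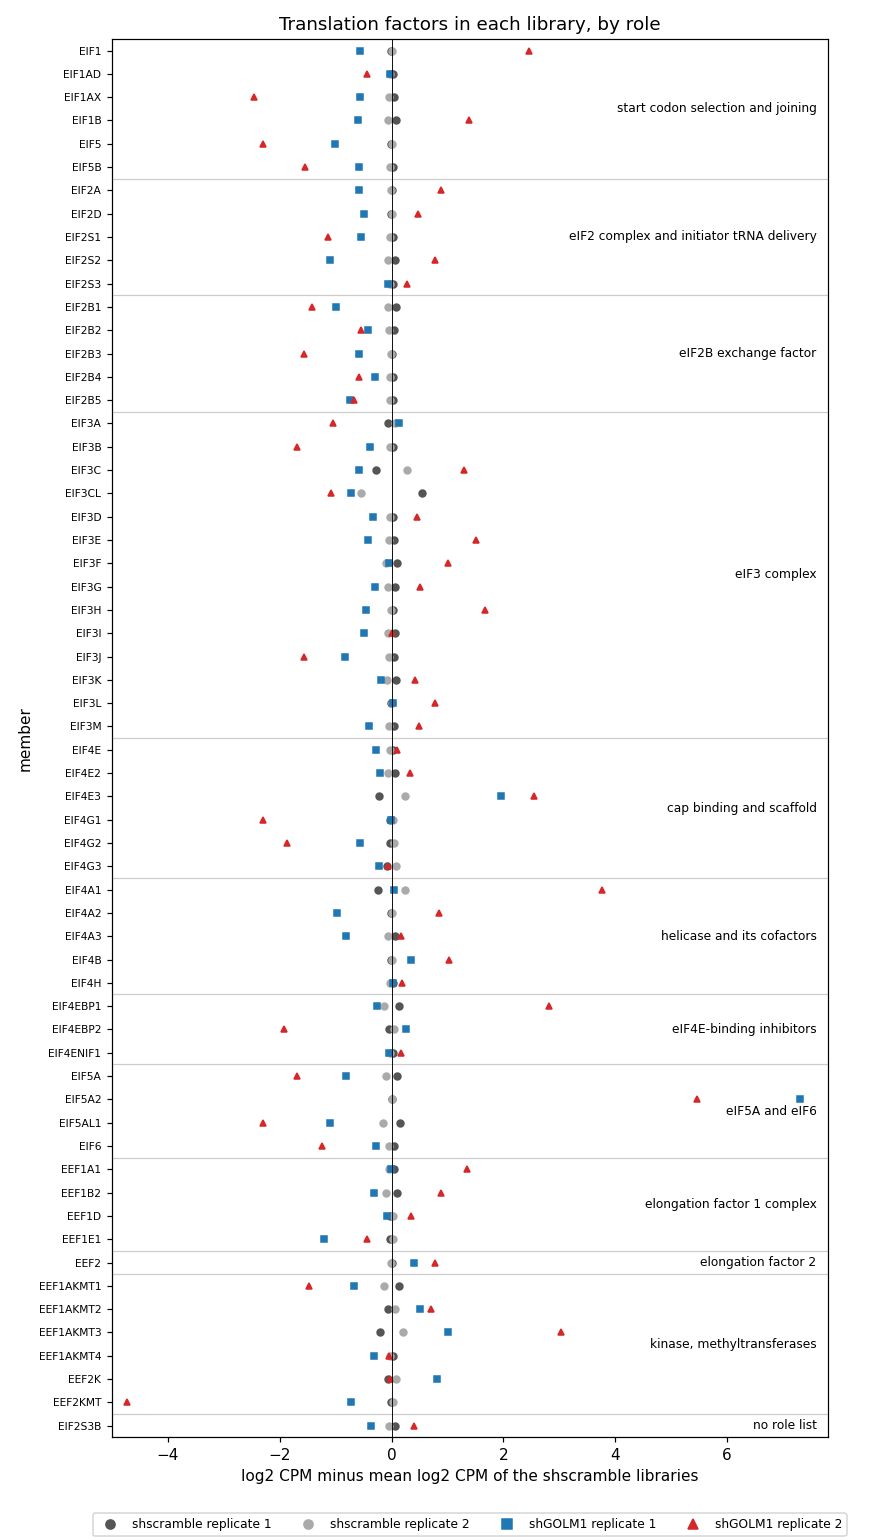
Log2 CPM of each of the 60 tested genes in each library, as the difference from the mean log2 CPM of the 2 shscramble libraries (x axis, log2 units), with genes on the y axis grouped by role. Circles are shscramble, squares shGOLM1 replicate 1 and triangles shGOLM1 replicate 2. All 5 eIF2B subunits have both shGOLM1 points left of 0, while many eIF3 subunits have replicate 1 left and replicate 2 right of 0. EIF5A2 had 0 counts in shscramble, so its position depends on the prior count of 2.

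By level, 2 elongation factors dominated the set. On the authors' FPKM scale, which divides by gene length, EEF1A1 stood at 3161 ± 147 and EEF2 at 1454 ± 18.2 in shscramble (mean ± SD, n = 2). EEF1B2, the exchange factor subunit of eEF1, followed at 375 ± 35.8 FPKM and EIF5A at 262 ± 24.8 FPKM. EIF3I (236 ± 13.3), EIF4H (232 ± 6.72) and EIF4G2 (207 ± 7.01) came next in mean FPKM, and EIF3I and EIF4H did not differ beyond their spread. The cap-binding protein gene EIF4E was far down the order at 7.65 ± 0.223 FPKM, next to its homolog EIF4E2 at 7.56 ± 0.496 FPKM, which was within its spread. That place depends on the gene length used, 14067 bases for EIF4E, the longest of the members. Without division by length, EIF4E averaged 109 CPM in shscramble, near EIF6 at 104 CPM, which had 63.3 FPKM. The scaffold gene EIF4G1 stood at 109.7 ± 3.67 FPKM. EEF1A1 and EEF2 together took 2.61% and 2.55% of all counts in shscramble, 2.98% in shGOLM1 replicate 1 and 4.83% in replicate 2. The other 64 genes together took 1.56%, 1.57%, 1.34% and 1.52%. All 66 genes together took 6.35% of counts in replicate 2 against 4.12% to 4.32% in the other 3 libraries. EEF2 alone took 0.609% and 0.617% in shscramble and 0.877% and 0.833% in shGOLM1, so between the shGOLM1 libraries the larger share in replicate 2 lay mainly in EEF1A1.

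**Figure D2:**
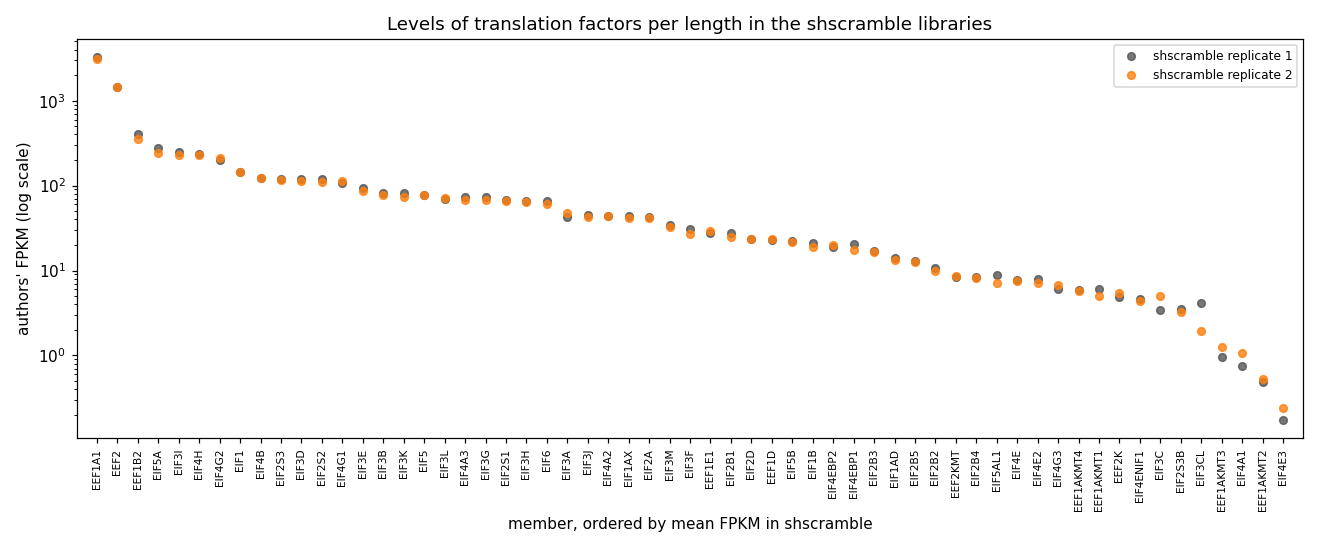
The authors' FPKM (y axis, log scale) of 59 tested genes in the 2 shscramble libraries, ordered by their mean. EEF1A1 at 3161 and EEF2 at 1454 FPKM stand above all others, and the eIF4E gene at 7.65 FPKM lies in the lower part of the order. FPKM divides by gene length, and the eIF4E gene has the longest of the members, 14067 bases. EIF5A2, at 0 in both libraries, is not drawn.

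The letters at annotated gene starts were read for the TOP form. In RefSeq's promoter table (GRCh38.p14), 53 of the 66 genes had an entry. A start was called TOP-like when the annotated first base, read on the gene's strand only, was a C and began a run of at least 5 bases made of C and T. By this rule 13 of the 53 had a TOP-like start (24.5%), against 1404 of the 27305 genes in the table (5.14%). They were EEF1A1, EEF1B2, EEF2, EIF2A, EIF2D, EIF2S3, EIF2S3B, EIF3D, EIF3F, EIF3K, EIF3M, EIF4A2 and EIF4B. The 13 members without an entry were EEF1A2, EEF1AKMT1, EEF1AKMT3, EEF1D, EEF2KMT, EIF2S2, EIF3A, EIF3CL, EIF3E, EIF3G, EIF3H, EIF3L and EIF4EBP1. The stretches below run from 10 bases before the annotated start to 20 bases from it, 5′ to 3′, and the capitals mark the pyrimidine run at the start. The first 7 are shown because they carry such a run, and the last 5 as members described below that do not.
EEF1A1: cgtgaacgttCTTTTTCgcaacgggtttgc
EEF2: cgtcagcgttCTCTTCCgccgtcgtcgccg
EEF1B2: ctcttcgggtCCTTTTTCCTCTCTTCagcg
EIF4B: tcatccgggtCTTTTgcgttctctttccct
EIF3F: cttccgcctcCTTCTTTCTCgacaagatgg
EIF2S3: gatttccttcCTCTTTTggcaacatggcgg
EIF4A2: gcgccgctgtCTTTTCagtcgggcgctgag
EIF1: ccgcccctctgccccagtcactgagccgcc
EIF2S1: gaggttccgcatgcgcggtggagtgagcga
EIF2B1: gtacggaagtgcgccggaagtggggtgcgg
EIF4E: tggagcggttgtgcgatcagatcgatctaa
EIF5A2: cccgtctcttggaactgccgcggccgccac
These stretches lie at chr6:73521013-73521042 (EEF1A1, minus strand), chr19:3985444-3985473 (EEF2, minus), chr2:206159885-206159914 (EEF1B2, plus) and chr12:53006446-53006475 (EIF4B, plus). EIF3F is at chr11:7987327-7987356 (plus), EIF2S3 at chrX:24054946-24054975 (plus) and EIF4A2 at chr3:186783567-186783596 (plus). EIF1 is at chr17:41688875-41688904 (plus), EIF2S1 at chr14:67360318-67360347 (plus) and EIF2B1 at chr12:123633667-123633696 (minus). EIF4E is at chr4:98929114-98929143 (minus) and EIF5A2 at chr3:170908618-170908647 (minus). The EEF1B2 stretch is 1 of 2 starts the table gives for that gene, and the other start is not TOP-like. A run of pyrimidines describes the letters at an annotated start and does not show where these cells start transcription.

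All 13 genes with a TOP-like start were above the shscramble mean in shGOLM1 replicate 2, by 0.27 to 1.35 on the log2 CPM scale with a median of 0.77. Among them, EIF2S3B is a near-identical copy of EIF2S3, and reads could be split between these copies. They are thus not independent entries. Of the 35 tested members with an entry and no TOP-like start, 13 were above the shscramble mean in replicate 2 (37.1%). Their median was -0.44, with a range from -2.47 to 5.47. In replicate 1 the kinds were closer. There, 2 of 13 with and 7 of 35 without such a start were above the shscramble mean, with medians of -0.31 and -0.42. Both shares (15.4% and 20%) were below those of all genes in replicate 1 (45.4% with and 48.1% without). These counts move with the scaling. With library totals in place of TMM factors, 12 of 13 and 7 of 35 were above the mean in replicate 2, and 5 of 13 and 10 of 35 in replicate 1. Over all genes tested, 414 of 712 with a TOP-like start (58.1%) and 4003 of 8774 without one (45.6%) were above the mean in replicate 2, with medians of 0.31 and -0.14. A second, textbook list of TOP mRNAs holds 9 members (EEF1A1, EEF1B2, EEF1D, EEF1G, EEF2, EIF3E, EIF3F, EIF3H and EIF4B), of which EEF1G had no counts. EEF1A1, EEF1B2, EEF2, EIF3F and EIF4B are also among the 13 with a TOP-like start, so the 2 lists are not independent. The 8 tested all passed as higher in replicate 2 (background 33.3%), with a median log2 difference of 1.02. In replicate 1, 2 passed as higher (EEF2 and EIF4B, background 20.4%) and 3 as lower (EEF1B2, EIF3E and EIF3H, background 24.1%). Ribosomal protein genes, the best-known TOP mRNAs, gave medians of -0.43 in replicate 1 and 1.14 in replicate 2, with 76 of 82 passing as higher in the latter, again beside 33.3% of all genes. These counts describe the lists and carry no test of the lists against each other.

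**Figure D3:**
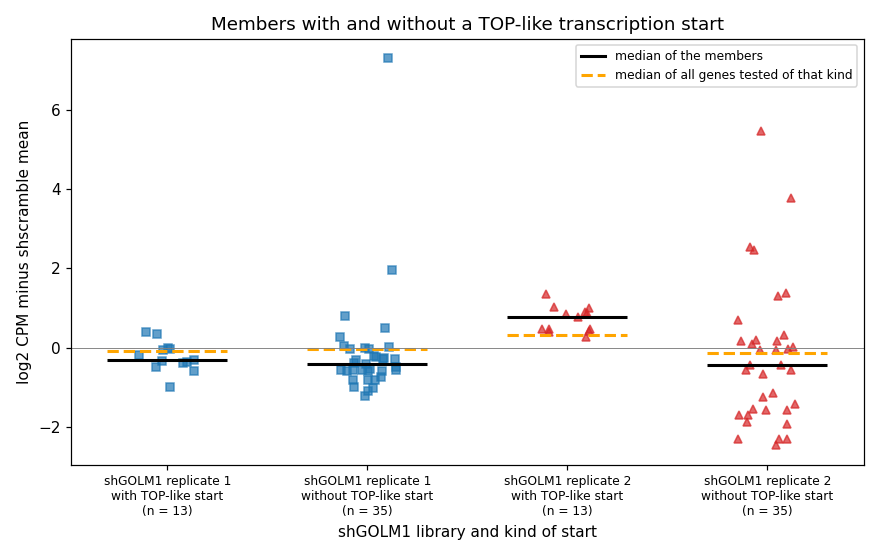
Log2 CPM minus the shscramble mean (y axis, log2 units) for members with (n = 13) and without (n = 35) a TOP-like start, in each shGOLM1 library (x axis). Points are genes, black lines the members' medians and dashed lines the medians of all genes tested of that kind. In replicate 2 all 13 genes with a TOP-like start lie above 0, and in replicate 1, 2 of 13 do.

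Among the factors that choose the start codon and join the subunits, EIF5, EIF1AX and EIF5B were lower in both shGOLM1 libraries, while eIF1 and its close homolog were not. EIF5, the GTPase-activating protein for eIF2 (chr14:103333544-103345025, GENCODE 29 on GRCh38), had 657 and 663 CPM in shscramble and 327 and 134 CPM in shGOLM1. Both shGOLM1 libraries were below both shscramble libraries, and the log2 fold change was -1.52 (SE 0.53, edgeR adjusted p = 0.42). EIF1AX, which encodes eIF1A and lies on chromosome X, had 198 and 188 CPM against 129.9 and 34.8 CPM, again without overlap. EIF5B, the GTPase that joins the large subunit, had 178 and 171 CPM against 117 and 59.8 CPM. These 3 genes were lower in each shGOLM1 library by its own fit, most of all EIF1AX in replicate 2, 5.54-fold lower than the shscramble mean. EIF1, the gatekeeper of start codon choice, took the other course, with 529 and 531 CPM in shscramble, 357 CPM in shGOLM1 replicate 1 and 2925 CPM in replicate 2. The 2 shGOLM1 libraries lay on opposite sides of shscramble, with replicate 2 at 5.52-fold the shscramble mean and replicate 1 1.48-fold below it. EIF1B, a near homolog, did likewise (40.5, 36.7, 25.4 and 101 CPM), and EIF1AD, named for its eIF1A-like domain, had 47.2, 45.3, 45.2 and 34.0 CPM. Of the 6 genes of this role, 5 passed as lower in replicate 1 (background 24.1%). In replicate 2, 4 passed as lower (background 34.1%) and 2 as higher, which is the background share of 33.3%.

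The subunits of eIF2 did not move together. EIF2S1, the alpha subunit that stress kinases phosphorylate, had 391 and 379 CPM in shscramble and 264 and 175 CPM in shGOLM1 (219 ± 62.9 against 385 ± 8.46 CPM, SD, n = 2). Its groups did not overlap, and the log2 fold change was -0.81 (SE 0.35, edgeR adjusted p = 0.447). EIF2S2, the beta subunit, had 318 and 292 CPM against 143 CPM in replicate 1 and 519.8 CPM in replicate 2, so that the shGOLM1 libraries lay on either side of shscramble. EIF2S3, the gamma subunit on chromosome X, varied least, with 425, 414, 401 and 505 CPM, and passed in neither library's fit. EIF2A and EIF2D, which can deliver tRNA without eIF2, were lower in replicate 1 and higher in replicate 2 (EIF2A 176, 175, 117 and 325 CPM). EIF2S3B, a near-identical retrocopy of EIF2S3, stood at 6.40 to 11.0 CPM, and reads could be split between the copies.

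All 5 subunits of eIF2B, the exchange factor of eIF2, had both shGOLM1 values below both shscramble values, also with library totals or DESeq2-type size factors, where 26.5% of all genes did with TMM factors. The median log2 differences were -0.58 in replicate 1 and -0.67 in replicate 2. EIF2B1, the alpha subunit (chr12:123620406-123633766), had 101 and 91.4 CPM in shscramble and 48.1 and 35.9 CPM in shGOLM1, a log2 fold change of -1.20 (SE 0.31, edgeR adjusted p = 0.42). DDX55, on the opposite strand, overlaps 14.8% of the exonic bases of EIF2B1 and had 2287, 2058, 1456 and 376 counts. Reads from that overlap cannot be assigned without strand information. EIF2B3, the gamma subunit, had 58.9 and 57.7 against 39.1 and 19.6 CPM. EIF2B5, the catalytic epsilon subunit, had 94.0 and 90.8 against 54.9 and 58.0 CPM, the most even pair of shGOLM1 values among the 5. Its log2 fold change was -0.71 (SE 0.27, edgeR adjusted p = 0.423). EIF2B2 (59.2, 55.1, 42.6 and 38.9 CPM) and EIF2B4 (44.9, 43.6, 36.2 and 29.7 CPM) had the smallest differences. By the library fits, 4 of 5 passed as lower in replicate 1, EIF2B4 being the exception (adjusted p = 0.0571), and 5 of 5 in replicate 2, where 24.1% and 34.1% of all genes did. A stress-responsive phosphatase subunit of the same pathway, PPP1R15A, is described with the pathway genes below.

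The 14 eIF3 genes, whose products form the largest initiation factor, parted by subunit. In replicate 1, 10 of 14 passed as lower and none as higher, where 24.1% and 20.4% of all genes did. In replicate 2, 9 passed as higher (64.3%, background 33.3%) and 4 as lower (28.6%, near the background of 34.1%), with medians of -0.40 and 0.47 for the 2 libraries. EIF3H had 432 and 421 CPM in shscramble, 312 CPM in replicate 1 and 1364 CPM in replicate 2. EIF3E, another subunit outside the conserved core, had 565, 528, 409 and 1559.6 CPM. The high value lay in replicate 2 alone for both genes, at 3.20-fold and 2.85-fold the shscramble mean. EIF3F (294, 255, 266 and 549 CPM) and EIF3L (305, 309, 312 and 528 CPM) were also high in replicate 2 and passed in no direction in replicate 1. Lower in both shGOLM1 libraries were EIF3B, a core subunit that binds RNA (734 and 711 against 551 and 224 CPM), and EIF3J, a loosely bound subunit (145 and 136 against 79.1 and 47.4 CPM). The log2 fold change of EIF3J was -1.15 (SE 0.37, edgeR adjusted p = 0.42). EIF3D, EIF3G and EIF3M passed as lower in replicate 1 and higher in replicate 2, with smaller gaps, at 379, 201 and 190.1 CPM in replicate 1 and 656, 353 and 350.3 CPM in replicate 2. EIF3K was at 192 to 294 CPM and EIF3I at 293 to 428 CPM. EIF3A, the largest scaffold subunit, was at 310.2, 341 and 355 CPM in the first 3 libraries and at 157 CPM in replicate 2. EIF3C and EIF3CL are near-identical copies between which reads could be split, and their shscramble values already differed (24.1 and 35.4 CPM, and 13.1 and 6.07 CPM), so their values are uncertain. 51.8% of the exonic bases of EIF3L are shared with other genes, and 41.1% with a gene on its own strand.

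Among the cap-binding and scaffold genes, EIF4E was among the most even genes of the set. It had 111 and 107 CPM in shscramble and 89.9 and 117 CPM in shGOLM1, and the groups overlapped (log2 fold change -0.07, SE 0.29, edgeR adjusted p = 0.929), though replicate 1 by itself was called lower (edgeR adjusted p = 0.0462). Its scaffold EIF4G1 (chr3:184314495-184335358) had 894 and 937 CPM in shscramble, 908 CPM in shGOLM1 replicate 1 and 185 CPM in replicate 2. Only replicate 2 was apart, 4.94-fold below the shscramble mean. EIF4G2, also called DAP5, which initiates without binding eIF4E, had 1764 and 1851 against 1224 and 493 CPM, lower in both libraries. EIF4G3, a homolog of EIF4G1, was at 52.8 to 65.1 CPM and EIF4E2, a homolog of EIF4E, at 47.4 to 68.6 CPM, and neither passed in either library's fit. EIF4E1B had 2 counts in shGOLM1 replicate 1 and 0 in the other libraries, and was not tested. EIF4E3, an atypical cap-binding homolog, was scarce in shscramble at 1.90 and 2.65 CPM (62 and 88 counts) and stood at 8.88 and 13.4 CPM in shGOLM1 (308 and 306 counts). Both shGOLM1 libraries were above both shscramble libraries. The log2 fold change of EIF4E3 was 2.29 (SE 0.49). DESeq2 called it (adjusted p = 0.00896) and edgeR did not (adjusted p = 0.42).

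The helicase genes and their cofactors held some of the wider gaps between the shGOLM1 libraries. EIF4A1 had 4.05 and 5.68 CPM in shscramble, 4.93 CPM in replicate 1 and 66.3 CPM in replicate 2, 13.6-fold the shscramble mean. The level of EIF4A1 is uncertain, since 48.6% of its exonic bases are shared with other genes on the same strand, among them the readthrough gene SENP3-EIF4A1, and how shared reads were counted is unknown here. EIF4A2 had 268, 269.9, 136 and 484 CPM, on opposite sides of shscramble in the shGOLM1 libraries. EIF4A3, a core part of the exon junction complex, was at 202 CPM in replicate 1 and at 340.1 to 399 CPM in the other 3 libraries. EIF4B, which stimulates the helicase and is a TOP mRNA, had 760.1 and 768 CPM in shscramble and 966 and 1566 CPM in shGOLM1, without overlap (log2 fold change 0.73, SE 0.40, edgeR adjusted p = 0.503). EIF4H, a related cofactor, was even at 733 to 853 CPM.

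The 4E-BP genes, whose products compete with eIF4G for eIF4E, differed from each other in replicate 2. EIF4EBP1 had 22.5 and 18.7 CPM in shscramble, 17.1 CPM in replicate 1 and 144 CPM in replicate 2, 6.99-fold the shscramble mean. EIF4EBP2 had 138 and 146 CPM, 169.7 CPM in replicate 1 and 37.5 CPM in replicate 2, 3.79-fold below that mean. In replicate 1 neither passed (adjusted p = 0.162 and 0.0885 in the fit of that library). EIF4ENIF1, the transporter 4E-T that takes eIF4E into the nucleus, was even at 27.0 to 31.3 CPM. EIF4EBP3 had 0 to 4 counts per library and was not tested, and 73.4% of its exonic bases are shared with the readthrough gene ANKHD1-EIF4EBP3.

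EIF5A and EIF6 were lower in both shGOLM1 libraries, while the paralog EIF5A2 appeared in them. EIF5A (chr17:7306999-7312463) had 794 and 695 CPM in shscramble and 422 and 229 CPM in shGOLM1, a log2 fold change of -1.19 (SE 0.43, edgeR adjusted p = 0.421). EIF5AL1, a near-identical retrocopy that could take reads from EIF5A, had 34.1, 27.6, 14.2 and 6.15 CPM. EIF6, which keeps the ribosomal subunits apart, had 108 and 101 against 86.0 and 44.0 CPM. In none of the 3 did the groups overlap, as in 26.5% of all genes in that direction. EIF5A2 (chr3:170888415-170908693) had no counts in either shscramble library, and 352 and 64 counts in shGOLM1 replicates 1 and 2, that is 10.2 and 2.81 CPM. A count of 0 allows up to 3 counts, or 0.0919 and 0.0902 CPM in these libraries, which covers counting error only. Against that limit per library, the shGOLM1 mean was at least 71.2-fold higher, replicate 1 at least 111-fold and replicate 2 at least 30.9-fold. EIF5A2 passed the filter on low counts only through the shGOLM1 libraries and was removed by a filter of 5 CPM in 2 libraries. Its adjusted p (0.42 in edgeR, 7.07e-07 in DESeq2, 1.05e-11 to 0.489 over the alternatives that kept it) is therefore given as a description. It shares no exonic base with another annotated gene.

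The eEF1 complex was led by EEF1A1 (chr6:73515750-73523797), with 19616 and 18374 CPM in shscramble, 18768 CPM in shGOLM1 replicate 1 and 48413 CPM in replicate 2. The first 3 libraries were alike and replicate 2 was 2.55-fold above the shscramble mean, so the groups overlapped (log2 fold change 0.82, SE 0.71, edgeR adjusted p = 0.643). EEF1A1 took 4.0% of all counts in that library, against 1.93% to 2.11% in the others. EEF1B2, the guanine nucleotide exchange subunit, had 775, 677, 585 and 1337 CPM. EEF1D, a further exchange subunit, had 217, 225, 209 and 283 CPM. Both were highest in replicate 2. EEF1E1, better known as the synthetase-complex protein AIMP3, had 59.4 and 61.6 CPM against 26.1 and 44.7 CPM, lower in both libraries and more so in replicate 1. EEF1A2, the muscle and neuron form of eEF1A, had 0 to 5 counts per library. EEF1G had 0 counts in every library, and 99.9% of its exonic bases are shared, on the same strand, with the gene AP002990.1, which had 16 to 48 counts. No statement on EEF1G expression can be drawn from that 0.

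EEF2, the single gene of the translocase eEF2 (chr19:3976056-3985469), had 5968 and 5866 CPM in shscramble and 7809 and 10084 CPM in shGOLM1. Both shGOLM1 libraries were above both shscramble libraries, and the log2 fold change was 0.60 (SE 0.46, edgeR adjusted p = 0.61). It passed as higher in each library's own fit (adjusted p = 0.01 and 5.52e-05). EEF2K, the kinase that inhibits eEF2, had 40.0 and 44.2 CPM in shscramble, 73.6 CPM in replicate 1 and 41.3 CPM in replicate 2, so that here replicate 1 was the one apart. EEF2KMT, a methyltransferase of eEF2, had 26.9 and 27.6 CPM, 16.4 CPM in replicate 1 and 0.966 CPM in replicate 2, 28.2-fold below the shscramble mean. 29.3% of its exonic bases overlap ALG1 on the opposite strand, which had 966, 948, 1187 and 199 counts, and reads of the 2 genes cannot be told apart without strand information. EEF1AKMT3, a lysine methyltransferase of eEF1A, had 3.06 and 4.09 CPM against 7.15 and 29.6 CPM, above shscramble in both libraries. Its log2 fold change was 2.36 (SE 0.80, edgeR adjusted p = 0.42), and 16% of its exonic bases overlap METTL1 on the opposite strand. EEF1AKMT1 was lower in both (8.31, 6.86, 4.70 and 2.68 CPM). EEF1AKMT2, at 2.05 to 3.56 CPM, and EEF1AKMT4, at 8.62 to 11.0 CPM, passed in neither library's fit. The readthrough genes EEF1AKMT4-ECE2 and EEF1E1-BLOC1S5, which share all their exonic bases with other genes, had 0 counts in every library.

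**Figure D4:**
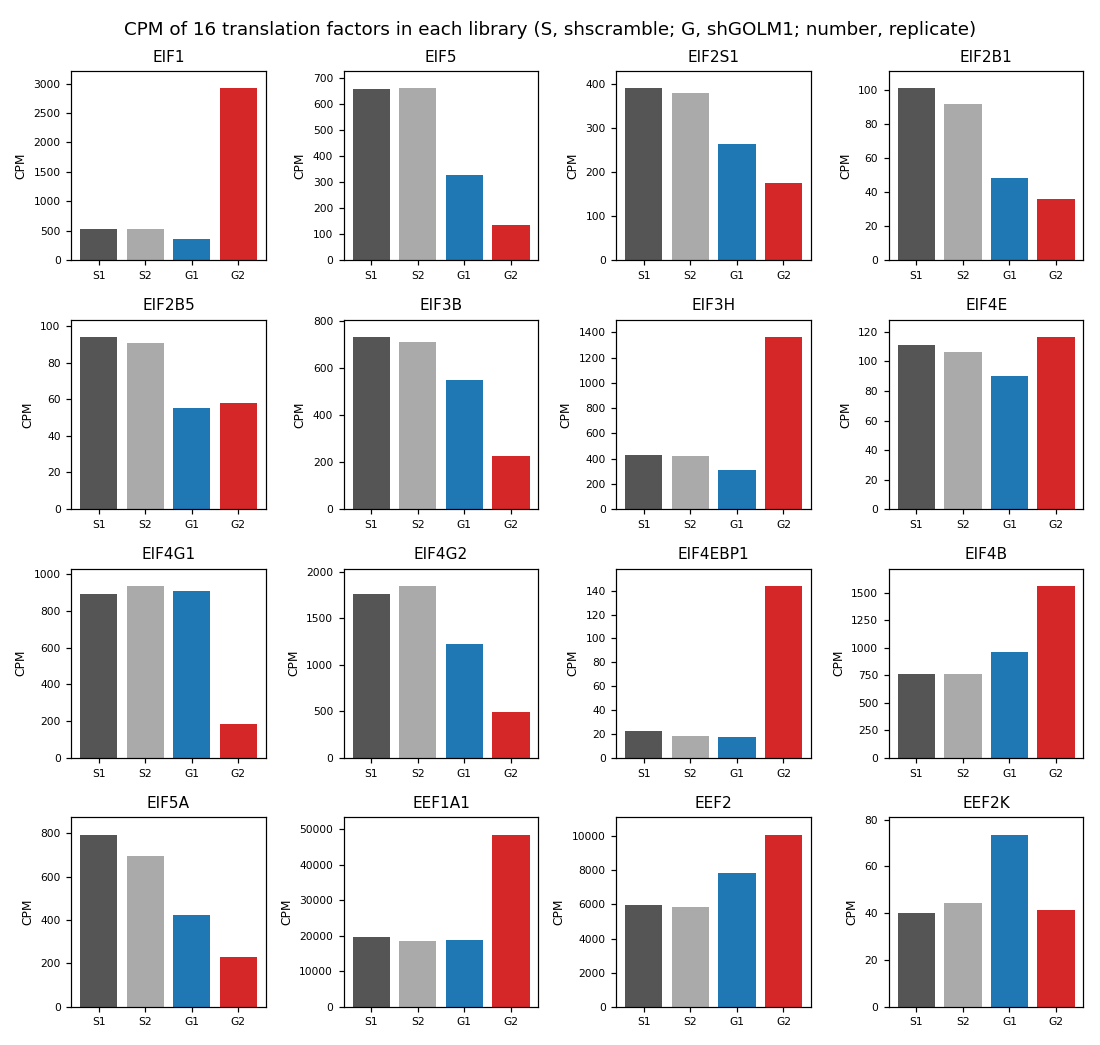
CPM (y axis, from 0, its own scale per panel) of 16 translation factor genes in each library (x axis: S1 and S2 are shscramble, G1 and G2 shGOLM1, replicates 1 and 2). Each bar is 1 library. EIF5, EIF2S1, EIF2B1, EIF2B5, EIF3B, EIF4G2 and EIF5A are lower in both shGOLM1 libraries, EIF4B and EEF2 are higher in both, and EIF1, EIF3H, EIF4EBP1 and EEF1A1 are high in G2 alone.

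Of 39 other genes that control these factors or act beside them in translation, 37 were tested and none passed edgeR's test over 4 libraries. DESeq2 called DDIT4, PPP1R15A, DHPS and PDCD4, each higher in shGOLM1 (adjusted p = 7.61e-06, 0.00628, 0.0246 and 0.0449, background 3.76%). In replicate 1, 11 of the 37 passed as higher (29.7%, background 20.4%) and 12 as lower (32.4%, background 24.1%). In replicate 2, 16 passed as higher (43.2%, background 33.3%) and 19 as lower (51.4%, background 34.1%). Among the eIF2 kinases and phosphatase subunits, PPP1R15A (GADD34), which returns phosphorylated eIF2 to its active form, had 26.5 and 22.3 CPM in shscramble, 30.6 CPM in replicate 1 and 855 CPM in replicate 2, 35.0-fold the shscramble mean. Its constitutive counterpart PPP1R15B had 406 and 420.0 CPM against 542 and 1306 CPM. The kinase gene EIF2AK3 (PERK) had 14.1 and 14.7 against 22.0 and 31.1 CPM. All 3 were above shscramble in both shGOLM1 libraries, and had the lowest edgeR p of the 9 genes listed. Of the 9, 4 had both shGOLM1 libraries above both shscramble libraries (44.4%, background 25.2%). PPP1CA and PPP1CC, 2 of the 9, had both below (22.2%, background 26.5%). The kinase genes EIF2AK2 (130, 146, 159 and 34.7 CPM) and EIF2AK4 (115, 132, 117 and 52.9 CPM) were low in replicate 2 alone. PPP1R15B and EIF2AK3 passed in each library's fit, and PPP1R15A passed in that of replicate 2 (adjusted p = 4.36e-14) and not in that of replicate 1 (adjusted p = 0.0864).

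Among the genes around mTORC1, DDIT4 (REDD1), an inhibitor of mTORC1, had 17.4 and 19.4 CPM in shscramble, 86.1 CPM in replicate 1 and 1879 CPM in replicate 2. Those are 4.67-fold and 102-fold the shscramble mean. PDCD4, an inhibitor of the eIF4A helicase, had 6.50 and 7.19 against 16.2 and 35.2 CPM, and MKNK2, which encodes a kinase of eIF4E, had 108 and 102 against 153 and 276 CPM. All 3 were higher in both shGOLM1 libraries, and none passed over 4 libraries in edgeR (adjusted p = 0.42, 0.42 and 0.424). They had the lowest edgeR p of the 14 genes listed around mTORC1. Of the 14, 4 had both shGOLM1 libraries above both shscramble libraries (28.6%, background 25.2%). MLST8 and RPS6KB1, 2 of the 14, had both below (14.3%, background 26.5%). The median log2 difference of the 14 was 0.34 in replicate 1 and -0.44 in replicate 2. LARP1, which binds the cap of TOP mRNAs and was picked after its values were seen, had 563 and 614 CPM, 846 CPM in replicate 1 and 129 CPM in replicate 2. It thus lay above shscramble in one library and 4.56-fold below it in the other.

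PABPC1, the main cytoplasmic poly(A)-binding protein gene and itself a TOP mRNA, had 2511, 2481 and 2566 CPM in the first 3 libraries and 4685 CPM in replicate 2. Its inhibitor PAIP2 had 51.3, 52.3, 39.0 and 173 CPM, and the activator PAIP1 had 112, 101, 65.3 and 151 CPM. All 3 were highest in replicate 2. Among the genes of termination and recycling, ABCE1, which splits ribosomes, had 308 and 328 against 202 and 89.9 CPM, and DENR, which acts in reinitiation, had 163 and 156 against 110.2 and 58.6 CPM, both lower in each shGOLM1 library. DHPS, the enzyme that starts the hypusine modification of eIF5A, had 1.56, 1.68 and 1.99 CPM in the first 3 libraries and 38.2 CPM in replicate 2, 23.5-fold the shscramble mean.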

How the data were processed

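RNA-seq of 4 SUP-M2 libraries was analysed, 2 per group, grouped by their titles. Per the labels' protocols, RNA was column-purified and a SMARTER mRNA-seq kit was used for the libraries. The aligner, counter and strand setting were not given in the sources used here. Builds named in the submitters' processing notes are of mouse (GRCm38, mm10), while the deposited table is human, and the coordinates of all 66 genes equal GENCODE 29 on GRCh38. The deposited counts are whole reads per gene, not normalized, per the file headers. The authors' FPKM values are scaled by gene length and were used only for levels. The authors also deposited a mean signal per group, which was not used, and a log2 fold change, p-value and adjusted p-value per gene, quoted only as the authors'.

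Counts were tested with edgeR 4.0.16 (limma 3.58.1, R 4.3.3): quasi-likelihood test, filterByExpr, TMM factors of 1.02, 1.05, 1.12 and 0.828, no covariate, two-sided, Benjamini-Hochberg over 14166 genes, threshold 0.05. CPM use TMM-scaled totals, and log2 CPM a prior count of 2. Single-library fits tested 15106 (shGOLM1 replicate 1) and 15268 (replicate 2) genes. For a library with no counts of a gene, 3 counts served as the limit. Scripts were tested on simulated data. Alternatives were DESeq2-type size factors, library totals, no filter, a filter of 5 CPM in 2 libraries, a block for replicate number, DESeq2 1.42.0, limma-voom, and each library left out. Replicate numbers were not shown to pair the libraries (correlation of replicate differences between groups -0.10, which does not exclude a pairing). The members, role lists and pathway lists were chosen with earlier results of these data known. The rule for named genes took central factors always, plus, per list, the 3 genes of lowest p among those averaging 1 CPM or more. Other members are given in addition where a role is described, and were picked after their values were seen. Start sequences are RefSeq's (GRCh38.p14). 0 columns of per-sample values were left unused for want of a sample.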

Additional observations from a re-analysis of the deposited data

How the results depend on the processing

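The count of genes called over 4 libraries was 0 with DESeq2-type size factors, library totals, the 5 CPM filter and limma-voom. It was 192 without the filter (175 higher, 17 lower), 203 with the replicate block (169 higher, 34 lower) and 533 with DESeq2 (485 higher, 48 lower). Of the members, 1 was called without the filter and 1 with the replicate block, EIF5A2 in both cases, and 2 with DESeq2. The replicate numbers are not shown to pair the libraries. With each library left out in turn, 20 to 10290 genes and 0 to 48 members were called, the high values being those without shGOLM1 replicate 1 and the 0 those without either shscramble library. The members' median log2 fold change ran from -0.37 (without shGOLM1 replicate 2) to 0.13 (without shGOLM1 replicate 1). It was between -0.09 (library totals) and 0.18 (5 CPM filter) under the other settings. Without the filter the median of all genes was 0.25. Scalings of the counts by kind of gene start and of the eIF2B count were added after seeing the data. The cause of these differences was not tested. The adjusted p of the named genes reached 1.00 under at least one alternative, except for EIF5A2 and DDIT4 (at most 0.489) and PPP1R15A (at most 0.647).

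Single genes near 0 changed sign. With library totals, the log2 fold change was -0.0015 for EIF2S3, -0.012 for EIF4A2, -0.039 for EIF4ENIF1 and -0.15 for PAIP1. Without the filter it was -0.014 for EIF4ENIF1 and -0.066 for PAIP1. With the replicate block it was -0.068 for EIF4A2 and -0.10 for PAIP1, and with limma-voom -0.037 and -0.12. With the 5 CPM filter it was 0.043 for EIF4E. The other named genes with a value kept their direction under these settings, with DESeq2 and with its size factors. A value was had for 49 named genes, and for 47 with the 5 CPM filter, which removed EIF5A2 and DHPS. Leaving out each library in turn, 14 crossed 0: EEF1A1 (-0.034 to 1.30), EEF1B2 (-0.33 to 0.83), EEF2K (-0.075 to 0.79), EIF2A (-0.61 to 0.84), EIF2S3 (-0.081 to 0.22), EIF3C (-0.63 to 1.22), EIF4A2 (-1.0 to 0.80), EIF4A3 (-0.83 to 0.12), EIF4E (-0.29 to 0.053), EIF4EBP1 (-0.28 to 2.76), EIF4EBP2 (-1.97 to 0.24), EIF4ENIF1 (-0.063 to 0.12), PAIP1 (-0.72 to 0.45) and PAIP2 (-0.43 to 1.69). With 2 libraries a group, no exact test over libraries can pass 0.05, and genes with few counts are limited by depth.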

Other observations

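Pseudogenes of the same families took a small part of the counts. The 136 annotated pseudogenes of eIF and eEF genes summed to 22049 and 21039 counts in shscramble and to 21634 and 50243 counts in shGOLM1 replicates 1 and 2. Most of these fell on EEF1A1P5, a processed copy of EEF1A1, with 13892, 13525, 14803 and 39535 counts, and on EEF1A1P6 with 1672, 1851, 2037 and 5324. Both followed EEF1A1 in being highest in shGOLM1 replicate 2. EIF5AP4, a copy of EIF5A, had 495, 433, 284 and 48 counts and followed EIF5A in being lower in both shGOLM1 libraries. Reads of a gene and its processed copy can be exchanged, so these values were not counted with the members.

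Gene length moved with the differences in replicate 1. With all genes tested split evenly into short, middle and long ones, the median log2 difference from shscramble was -0.18, -0.06 and 0.19 in replicate 1 and 0.18, -0.12 and -0.14 in replicate 2. The 13, 25 and 22 translation factor genes in those classes had medians of -0.49, -0.33 and -0.25 in replicate 1 and of 0.01, 0.27 and 0.13 in replicate 2. In replicate 1 the members' median in each class was thus below that of all genes. The part of length in the members' values was not tested.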
